A study of Mus musculus with 6 samples.

Results

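The 5 genes described here, Ms4a4c, Ms4a6b, Ms4a6c, Ms4a6d and Ms4a7, encode MS4A membrane proteins of myeloid cells. They were taken by symbol from the 13912 genes of the deposited table, all 5 were in it, and they were chosen by their log2 values, which stood far higher in the tumour libraries than in culture. RNA sequencing was done on 6 libraries of 4T1-Luc2-RFP, a BALB/c mouse mammary carcinoma line which in both groups carries luciferase and red fluorescent protein transgenes. The first group was 3 libraries of the line in culture, and the second was 3 libraries of cells sorted by fluorescence out of mammary tumours that grew in the milk ducts of BALB/c mice. The titles of all tumour libraries carry the word Right, and those of all cultured libraries the word NonInjected. Ages, further treatment, and whether a library came from 1 animal or from pooled animals were not given in the sources used here. Within a group the libraries have the numbers 1 to 3, by ascending title number. The labels do not name separate cultures or animals within a group, so the spread between libraries may be technical, and p-values measure only that spread.

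MS4A proteins cross the membrane several times and have both ends inside the cell. The best known members are CD20 of B cells, encoded by Ms4a1, and the beta chain of the high-affinity IgE receptor of mast cells, encoded by Ms4a2. Several others are made mainly by monocytes and macrophages, where some associate with activating receptors at the cell surface. In mice the Ms4a6 and Ms4a4 subgroups have been duplicated and lie in 1 gene cluster.

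All 5 are protein-coding genes on chromosome 19 of GRCm38, between bases 11321039 and 11604849, a span of 283.8 kb. Ms4a7 (ENSMUSG00000024672.11) lies at chr19:11321039-11336146 on the minus strand, at 1 end of this span. Ms4a4c (ENSMUSG00000024675.19) lies at chr19:11404770-11427246, Ms4a6c (ENSMUSG00000079419.4) at chr19:11469366-11482192 and Ms4a6b (ENSMUSG00000024677.13) at chr19:11516512-11531256, all on the plus strand. Ms4a6d (ENSMUSG00000024679.10) closes the span at chr19:11586604-11604849 on the minus strand.

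The bases before the start sites are shown because the 5 genes stood high in the same libraries and 2 of them share a stretch there. RefSeq's table for GRCm38.p6 held a start site for 4 of the 5, and for Ms4a7 it held 2, of which the first is shown. Each line gives the 250 bases before the start, 5′ to 3′ in the direction of the gene. Capitals mark GGAAGT, a core of ETS family sites, to which the myeloid factor PU.1 belongs, or its reverse complement. The windows are chr19:11407411-11407660 (plus) for Ms4a4c, chr19:11518309-11518558 (plus) for Ms4a6b, chr19:11469118-11469367 (plus) for Ms4a6c and chr19:11336147-11336396 (minus) for Ms4a7.
Ms4a4c: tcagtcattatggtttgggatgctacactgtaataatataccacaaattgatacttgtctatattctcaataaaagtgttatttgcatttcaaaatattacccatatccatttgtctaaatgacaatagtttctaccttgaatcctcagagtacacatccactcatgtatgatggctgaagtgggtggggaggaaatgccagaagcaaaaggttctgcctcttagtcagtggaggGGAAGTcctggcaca
Ms4a6b: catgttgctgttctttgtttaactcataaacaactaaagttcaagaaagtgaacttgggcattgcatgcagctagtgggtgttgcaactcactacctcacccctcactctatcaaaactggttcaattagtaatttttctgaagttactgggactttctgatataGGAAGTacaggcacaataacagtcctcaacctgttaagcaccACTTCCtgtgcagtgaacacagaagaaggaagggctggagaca
Ms4a6c: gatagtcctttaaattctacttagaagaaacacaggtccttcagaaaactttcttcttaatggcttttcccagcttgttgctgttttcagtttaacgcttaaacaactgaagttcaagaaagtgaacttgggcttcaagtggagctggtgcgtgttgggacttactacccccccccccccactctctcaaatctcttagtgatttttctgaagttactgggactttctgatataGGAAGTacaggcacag
Ms4a7: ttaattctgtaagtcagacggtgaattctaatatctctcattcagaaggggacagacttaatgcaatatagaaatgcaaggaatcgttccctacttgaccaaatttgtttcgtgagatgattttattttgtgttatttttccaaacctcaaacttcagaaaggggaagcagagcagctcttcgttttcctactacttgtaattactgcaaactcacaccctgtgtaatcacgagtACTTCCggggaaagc
The motif GGAAGT was chosen after these sequences had been read. It was found in either direction in the first-site windows of all 4 genes and in 19.7% of 32851 windows of the same length before annotated starts. Counted from the start, it lay at bases -15 to -10 in Ms4a4c, -16 to -11 in Ms4a6c and, as its reverse complement, -15 to -10 in Ms4a7. In Ms4a6b it lay at bases -85 to -80, and its reverse complement at -43 to -38. A longer PU.1 motif start, GAGGAA, was found in Ms4a4c alone, at bases -61 to -56, and in 23.3% of all windows. The letters of these motifs can overlap in general but did not in these windows. The AP-1 site TGANTCA, which reads the same in both directions, occurred once, before the second start of Ms4a7 (6.75% of all windows). Neither the interferon-stimulated response element written as GAAA, 2 bases of any kind and GAAA (2.98%), nor TTGCNNAA for C/EBP factors (9.56%), nor TATAAA (12.4%) was found in either direction.

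The windows of Ms4a6b and Ms4a6c share an unbroken run of 48 bases that holds the capitalised motif, whereas no other pair of members shared more than 9 bases in a row.
Ms4a6b and Ms4a6c: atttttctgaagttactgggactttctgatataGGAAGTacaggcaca
In Ms4a6c this run ends at base -2, just before the annotated start, and in Ms4a6b it lies at bases -118 to -71. The same motif therefore stands farther from RefSeq's start in Ms4a6b than in Ms4a6c. Distances hold for RefSeq's starts alone. The windows of Ms4a6b and Ms4a4c lie within the gene spans given above, which begin at bases 11516512 and 11404770.

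In their coding sequences the 5 genes fell into the subgroups that their names give. Over aligned bases, Ms4a6b and Ms4a6c were 86.4% identical, Ms4a6b and Ms4a6d 81.8%, and Ms4a6c and Ms4a6d 79.6%. With gaps counted these were 74.7%, 80.1% and 67.2%, so the order of the pairs depends on gaps. Over aligned bases Ms4a4c was 60.8% to 63.1% identical to the Ms4a6 genes and 65.7% to Ms4a7. With gaps counted it was 50.8% to 52.4% and 46.4%. The coding sequences compared were those of the 5 and of Ms4a4b, Ms4a4d and Ms4a8a. Among these, Ms4a4b, which is not 1 of the 5, was the closest to Ms4a4c, at 91.7%. Reads from such copies can be hard to assign, so windows of 50 bases of each gene's longest protein-coding transcript were searched for in the transcripts of all other genes. No window of Ms4a7 occurred elsewhere, against 2.92% for Ms4a6d, 5.89% for Ms4a6b and 8.48% for Ms4a4c. For Ms4a6c the share was 56.9%, and 109 of its 1020 shared windows matched an MS4A gene, so its reads may be undercounted where reads with several matches were dropped. The read length and the treatment of such reads were not given in the sources used here.

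All 5 genes were close to absent from cultured cells and well expressed in every tumour library. Values below are CPM, reads scaled to the size of the library, from whole reads recovered from the deposited log2 values, and libraries held 35448588 to 41469090 reads. In culture the 5 together had 10 reads in library 1, 7 in library 2 and 1 in library 3. In tumours they had 26004 reads in library 1, 22572 in library 2 and 28664 in library 3. The groups did not overlap for any of the 5, as was the case for 59.8% of all 13912 genes, and in the same direction for 34.6%. The rule chose the genes by this contrast, so it was not tested for them and the count supports nothing. No gene of the table had under 61 reads in all, so each of the 5, with 0 to 12 cultured reads, was in the table only through its tumour reads.

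**Figure D1:**
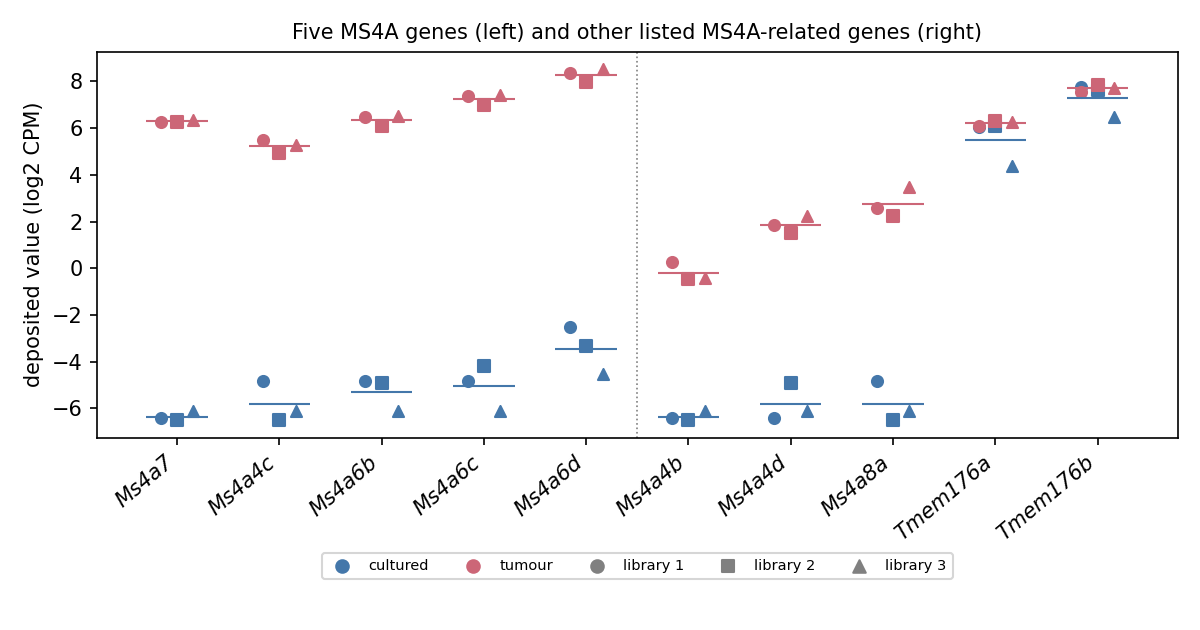
Deposited log2 CPM of the 5 MS4A genes (left of the dotted line) and of the other listed MS4A-related genes in the table (right), for 3 cultured (blue) and 3 tumour (red) libraries. Points are libraries, with 1 marker shape per library number, and lines are group means. The 5 genes sat between -6.50 and -2.51 in culture and between 4.95 and 8.53 in tumour libraries, while Tmem176a and Tmem176b had 723 to 9256 reads per library, with cultured library 3 lowest.

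Ms4a6d, reported in macrophages in a complex with the receptor VSIG4, had the most reads of the 5. It stood at 330.4, 252 and 370 CPM in tumour libraries 1, 2 and 3, with 7, 4 and 1 reads in cultured libraries 1, 2 and 3. Tumour library 2 was the lowest, and cultured library 1 held most of the cultured reads. Its tumour mean was 317 ± 60.2 CPM (SD, n = 3). From reads and scaled totals summed over each group, as for the ratios that follow, the tumour group was 3228 times the cultured group (95% counting interval 1848 to 6249).

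Ms4a6c, a gene of monocytes and macrophages, came next by reads, at 164 CPM in tumour library 1, 128 in library 2 and 174 in library 3. In culture it had 1, 2 and 0 reads. The ratio over these 3 reads was 6319 (95% counting interval 2162 to 30640). Tumour library 2 was again the lowest of its group.

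Ms4a6b, which T cells also express, stood at 88.1, 68.2 and 92.5 CPM in tumour libraries 1, 2 and 3 and had 1, 1 and 0 reads in culture. The ratio was 5066 (95% counting interval 1402 to 41840). The order of the tumour libraries was that of Ms4a6c and Ms4a6d, with library 3 highest and library 2 lowest.

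Ms4a4c, known from inflammatory monocytes, had the fewest tumour reads of the 5, at 45.3, 30.8 and 38.9 CPM in tumour libraries 1, 2 and 3. A single read was found in culture, in library 1, which gives a ratio of 4676 (95% counting interval 838.8 to 184700). Unlike the Ms4a6 genes, it was highest in tumour library 1.

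Ms4a7, a gene of resident tissue macrophages, had 0 reads in all 3 cultured libraries. Its tumour levels were 77.3, 77.1 and 81.1 CPM, which is at least 3210-fold higher than in culture, against a floor of 3 reads over the cultured group. Its tumour libraries lay closer together than those of the other 4: the highest was 1.05 times the lowest, against 1.36 times for Ms4a6b and Ms4a6c and 1.47 times for Ms4a4c and Ms4a6d. These intervals and this floor hold for counting error alone, since reads may copy the same molecule.

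By their log2 difference between groups the 5 stood at places 20 (Ms4a7), 42 (Ms4a6c), 84 (Ms4a6d), 100 (Ms4a6b) and 153 (Ms4a4c) of 13912 genes, with differences of 12.64, 12.31, 11.75, 11.65 and 11.06. Fitted differences of genes with 0 to 3 cultured reads depend on the 0.5 reads that the values include. With 2 reads added they were 11.19 for Ms4a6d, 11.08 for Ms4a6c, 10.64 for Ms4a7, 10.32 for Ms4a6b and 9.39 for Ms4a4c, so the order of the 5 depends on this choice.

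Levels of different genes can be compared only per length, and here the choice of length matters. Over the union of annotated exons, Ms4a6d stood at 183 ± 34.7 CPM per kilobase (SD, n = 3) and Ms4a6c at 75.7 ± 11.8. The lowest library of Ms4a6d, at 145, was above the highest of Ms4a6c, at 84.8. Ms4a4c at 21.9 ± 4.15, Ms4a6b at 18.5 ± 2.89 and Ms4a7 at 17.6 ± 0.50 CPM per kilobase had SDs that overlapped, although Ms4a4c was above both others in every tumour library. The union of Ms4a6b (4485 bases) and of Ms4a7 (4453 bases) includes transcripts with retained introns. Over the longest protein-coding transcript, of 2680 and 1576 bases, Ms4a7 stood at 49.8 ± 1.42 and Ms4a6b at 31.0 ± 4.84 CPM per kilobase, and Ms4a7 was then above Ms4a6b and Ms4a4c in every tumour library. Ms4a6d and then Ms4a6c were highest under each of the lengths. No length allows for windows shared with other genes, which were 56.9% for Ms4a6c and 2.92% for Ms4a6d. Ms4a6c may be undercounted for this reason, so how far Ms4a6d stood above it is not settled.

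**Figure D2:**
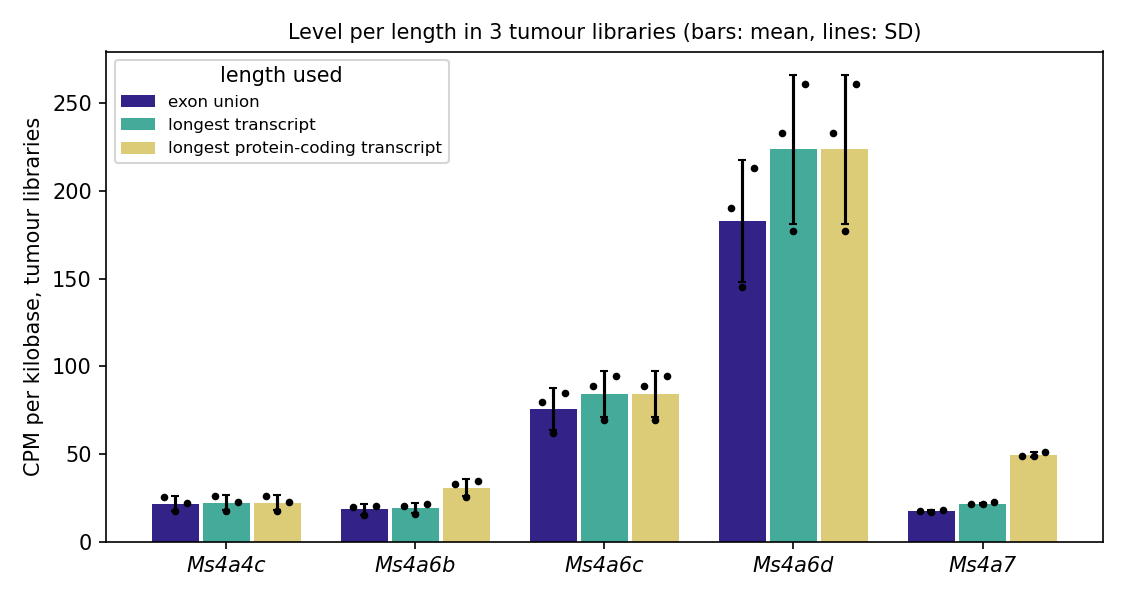
CPM per kilobase of the 5 MS4A genes in the 3 tumour libraries, with bars for means, lines for SD, points for libraries and colours for the length used. Ms4a6d led at 183 to 224 CPM per kilobase whichever length was used, and Ms4a7 moved from 17.6 to 49.8. No allowance was made for windows shared with other genes.

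In the make-up of the 5, Ms4a6d and then Ms4a6c led in every tumour library, while the shares of Ms4a7 and Ms4a4c shifted. The possible undercount of Ms4a6c applies to these shares too. Over the exon union Ms4a6d took 57.1%, 56.3% and 59.4% of their summed CPM per kilobase in tumour libraries 1, 2 and 3, and Ms4a6c took 24.0%, 24.2% and 23.6%. Ms4a7 took 5.21%, 6.72% and 5.07%, with its highest share in library 2. Ms4a4c took 7.76%, 6.83% and 6.19%.

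Tumour library 2 was the lowest tumour library for all 5 genes, but hardly so for Ms4a7. Its log2 difference from the mean of libraries 1 and 3 was -0.47 for Ms4a6d (95% counting interval -0.51 to -0.44), -0.45 for Ms4a4c (-0.54 to -0.35), -0.41 for Ms4a6b (-0.47 to -0.34) and -0.40 for Ms4a6c (-0.45 to -0.36). For Ms4a7 it was -0.04 (-0.10 to 0.02), and 0.03 when plain library totals replaced the scaled ones. This is 1 library against 2, so there is no replicate check. The median over the 11975 genes that averaged 1 log2 CPM or more in tumours was 0.03, with quartiles of -0.20 and 0.19.

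Myeloid marker lists differed in the same library. All 18 macrophage markers were lower in it, by a median of -0.33 and with a range of -1.12 to -0.10. Ms4a7 lay just outside that range, next to Folr2 at -0.10, and its counting interval reached -0.10. Of 12 monocyte markers 10 were lower, with a median of -0.67, and Cx3cr1, Ace and Spn of that list were at -0.01, 0.04 and 0.28. The 8 neutrophil markers of that level were lower by a median of -3.05, and the median of 9 epithelial markers was -0.01. Among single genes, the complement genes C1qa, C1qb and C1qc of resident macrophages had differences of -0.19, -0.20 and -0.20, and Ly6c2, Ccr2 and Plac8 of monocytes had -0.41, -0.64 and -1.10. The part of these cells in the values of the 5 genes was not tested.

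**Figure D3:**
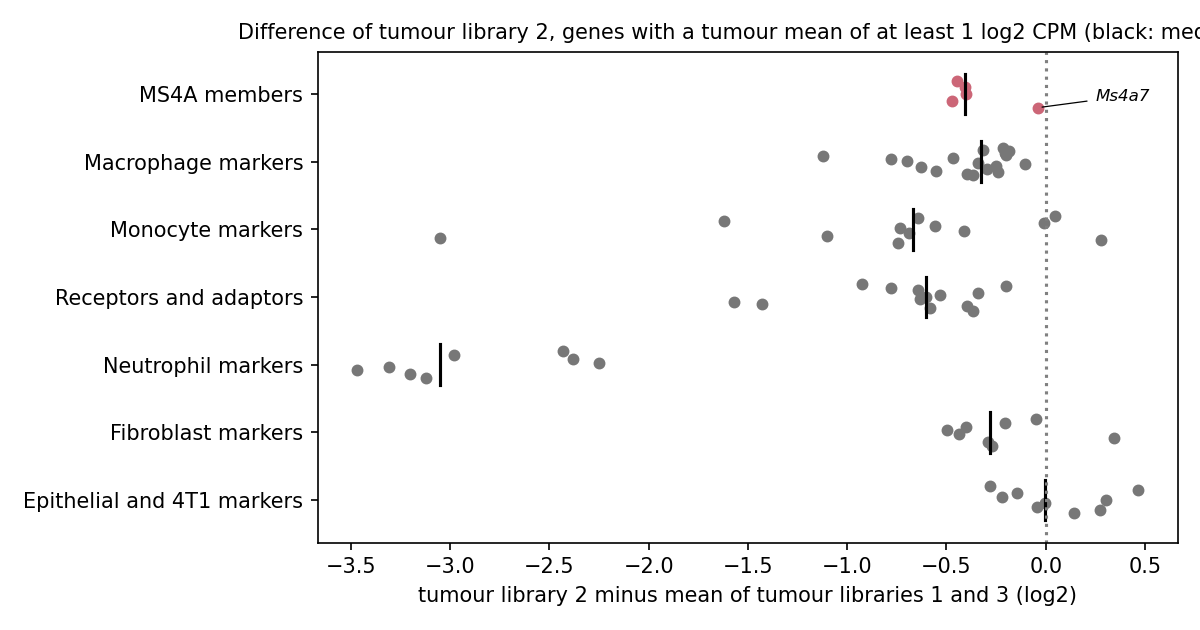
Log2 difference of tumour library 2 from the mean of tumour libraries 1 and 3, 1 point per gene that averaged 1 log2 CPM or more in tumours, by list, with black lines at list medians. Ms4a7 sat at -0.04 and the other 4 MS4A genes between -0.47 and -0.40, while neutrophil markers had a median of -3.05.

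Set against the median macrophage marker of the same library, which stood at 7.75, 7.34 and 8.16 log2 CPM in tumour libraries 1, 2 and 3, the 5 genes varied by 0.26 to 0.75 between libraries. These offsets are in log2 CPM not divided by length, so only their change between libraries can be read. The offset of Ms4a6d was 0.62, 0.64 and 0.37 in tumour libraries 1, 2 and 3, and that of Ms4a6c was -0.39, -0.34 and -0.72. Ms4a7 had its highest offset in library 2, at -1.07, against -1.47 in library 1 and -1.81 in library 3. Ms4a4c moved from -2.25 in library 1 to -2.88 in library 3. These changes depended on the reference. Against the median of a list of receptors and adaptors that work beside MS4A proteins, all 5 genes had their highest offset in library 2. There Ms4a4c stood at -2.196, -1.735 and -2.14 in tumour libraries 1, 2 and 3, and Ms4a6c at -0.34, 0.32 and 0.02.

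Of 15 other listed genes of the family or related to it, 5 were in the table and the other 10, Ms4a1 and Ms4a2 among them, are not analysed here. Of these 5, Ms4a8a, Ms4a4d and Ms4a4b had 0 or 1 cultured reads, so the minimum of 61 reads fixed their direction and no test is given for them. Ms4a8a, described in alternatively activated macrophages, stood at 7.30 ± 3.43 CPM (SD, n = 3), with a log2 difference of 8.59 (SE 0.56). It differed 2.38-fold between the highest and the lowest tumour library. Ms4a4d stood at 3.71 ± 0.99 CPM (SD, n = 3) and Ms4a4b, a gene of T cells, at 0.88 ± 0.27 CPM (SD, n = 3), with log2 differences of 7.68 and 6.14. The related genes Tmem176a and Tmem176b, which lie on chromosome 6, were expressed in both groups, at mean log2 CPM of 5.51 and 7.28 in culture and 6.23 and 7.71 in tumour libraries. Neither passed limma's test at a Benjamini-Hochberg adjusted 0.05 (log2 differences of 0.71 and 0.43, limma adjusted p = 0.211 and 0.316), by which 29.5% of all 13912 genes were higher in tumour libraries and 18.8% lower. For Tmem176a the groups did not overlap, and the highest cultured and lowest tumour libraries stood at 6.10 and 6.11 log2 CPM. Both passed when libraries were centred on the epithelial markers (limma adjusted p = 0.0305 and 0.0339). Cultured library 3 was lowest for both, at 4.38 and 6.46 log2 CPM, and without it the differences were 0.15 and 0.02.

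Genes around the 5 on chromosome 19 were examined out to 500 kb on either side. No gene of the table other than Ms4a4b and Ms4a4d lay between the 5. The flanks held Ms4a8a and 10 genes from outside the family, of which 3 were higher in tumour libraries, 0 lower, and 7 did not pass. A count of 3 in 10 is near the 29.5% of all genes that were higher. On the side of Ms4a6d, Mrpl16, Stx3, Patl1 and Osbp had log2 differences of -0.62, -0.41, -0.04 and -0.41, and none passed the test (limma adjusted p of 0.126, 0.168, 0.885 and 0.0983). On the side of Ms4a7 the nearest gene from outside the family was AW112010, annotated as a long intergenic noncoding RNA, with a log2 difference of 9.95 (SE 0.57). Beyond it Ccdc86, Prpf19 and Tmem109 did not pass (limma adjusted p of 0.420, 0.0816 and 0.861), and Tmem132a was higher by 0.96 (SE 0.18, limma adjusted p = 0.00371). The peptide transporter gene Slc15a3 lay farthest out on that side, with a log2 difference of 10.26 (SE 0.40). AW112010 and Slc15a3 had 8 and 39 cultured reads, fewer than the minimum of 61, so their tumour reads put them in the table. The 3 higher genes all lay on the side of Ms4a7, and a difference between the sides was not tested. Those 3 were higher under every alternative run for these genes. For AW112010 and Slc15a3 this adds no support, since their tumour reads put them in the table. The count of lower genes was 3 (Osbp, Prpf19 and Stx3) with each library centred on its median. It was 2 (Osbp and Stx3), with Tmem109 higher, without cultured library 3. It was also 2 with library weights (Osbp and Stx3) and after quantile normalization (Mrpl16 and Prpf19), and 1 (Prpf19) with plain library totals or without cultured library 1.

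**Figure D4:**
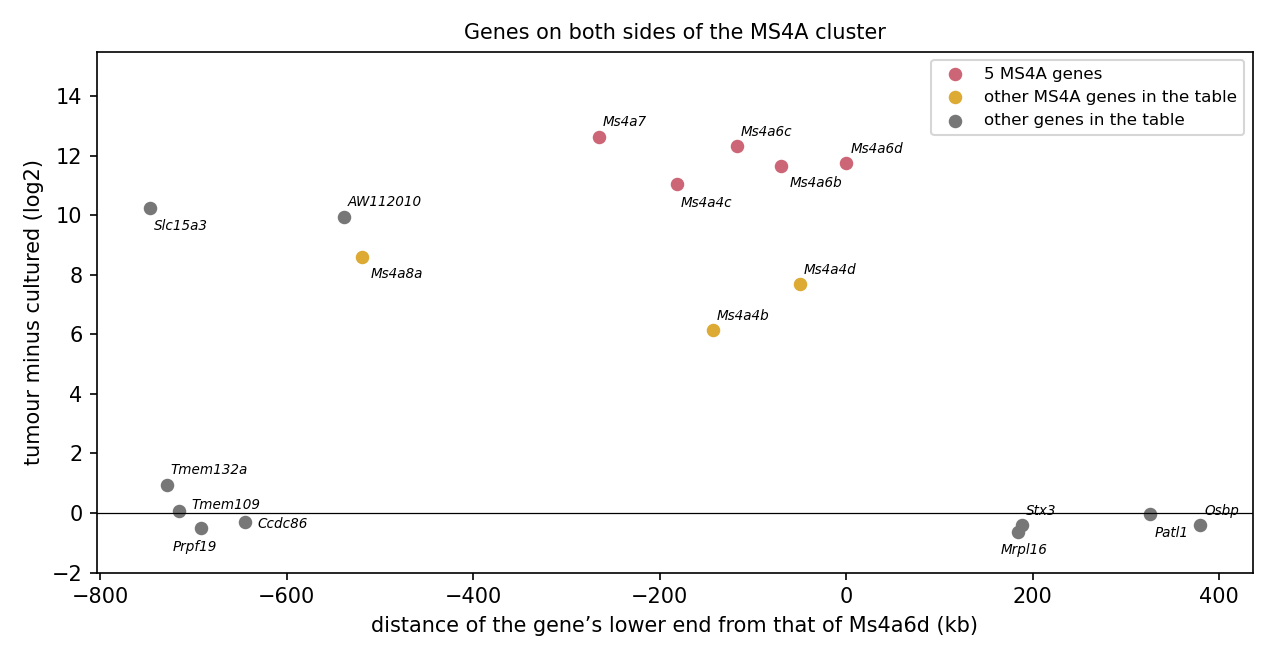
Log2 difference between tumour and cultured libraries of the 18 genes of the table within 500 kb of the 5 MS4A genes, against the distance of each gene's lower end from that of Ms4a6d in kb. The 5 genes stood between 11.06 and 12.64 and the 4 genes beyond Ms4a6d between -0.62 and -0.04.

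Markers of the cells known to make MS4A proteins differed between the groups too, and their part in the values of the 5 genes was not tested. The tumour libraries are labelled as sorted carcinoma cells, and in bulk RNA fewer cells of a type and less RNA per cell cannot be told apart. Over all genes 29.5% were higher and 18.8% lower, which is the background of the counts of these lists. Of all genes 15.9% had fewer than 61 reads in culture, so that only their tumour reads put them in the table. Of 18 macrophage markers 18 were higher and 0 lower, with a median log2 difference of 10.71 against 0.08 over all genes, but 13 of the 18 had fewer than 61 cultured reads. Their summed level ranged from 28.6 to 40.1 CPM in culture and from 6543 to 9680 in tumour libraries. Lyz2, the lysozyme of myeloid cells, and Cd14, a co-receptor for endotoxin, had the most reads of this list, at tumour means of 11.37 and 10.08 log2 CPM. Among the 18, Vsig4 had 0 cultured reads. All 12 monocyte markers were higher, 7 of them with fewer than 61 cultured reads, from a summed 28.4 to 37.2 CPM to 1160 to 1737. Nr4a1 and F13a1 had the most reads, at tumour means of 8.59 and 8.15 log2 CPM. Of the lists of neighbouring cell types, 9 of 9 neutrophil, 7 of 8 dendritic, 8 of 8 fibroblast and 6 of 7 endothelial markers were higher. In the same order 9, 7, 5 and 6 of these lists' genes had fewer than 61 cultured reads. In the neutrophil, dendritic and endothelial lists these genes had at most 19 cultured reads, so the minimum of 61 fixed their direction. The counts of those lists are therefore no test. The dendritic Zbtb46 and the endothelial Egfl7 were above that minimum, with log2 differences of 0.15 and 0.03.

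Most lymphocyte and mast cell genes had few reads. Of the genes of these 3 lists in the table, all but Lck had fewer than 61 cultured reads, so they were in it only through their tumour reads and no test is given for them. B cell markers summed to 7.28 to 9.52 CPM in tumour libraries, with 2 of 7 in the table, Cd22 and Cd79b. T cell markers summed to 9.14 to 9.47 CPM, with 5 of 8 in the table, Cd4 and Cd8a among them, while Lck had a difference of -0.84 and did not pass (limma adjusted p = 0.0962). Of 5 mast cell markers in the table Tpsb2, a mast cell tryptase, stood at a tumour mean of 1.08 log2 CPM, and Hdc, which neutrophils also express, accounted for most of the sum of 41.0 to 353 CPM. Of 10 epithelial markers 0 were higher and 4 lower, against 29.5% and 18.8% of all genes. Their sums overlapped, at 2775 to 3598 CPM in culture and 2683 to 3134 in tumour libraries.

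Of the genes that work beside MS4A proteins, all 13 receptors and adaptors listed had fewer than 61 cultured reads, and their level went from a summed 0.92 to 1.83 CPM in culture to 1985 to 3829 in tumour libraries. Fcgr2b, the inhibitory Fc receptor, had a log2 difference of 11.95 (SE 0.23) and Nlrp3, the inflammasome sensor, one of 10.30 (SE 0.53). Vsig4, the reported partner of MS4A6D, had a tumour mean of 1.99 log2 CPM. All 11 myeloid transcription factors were higher, against 29.5% of all genes, and 6 of them had fewer than 61 cultured reads. Among them Spi1, which encodes PU.1, stood at a tumour mean of 6.68 log2 CPM. All 14 interferon-induced genes were higher as well, 3 of them with fewer than 61 cultured reads. Gbp2, a guanylate-binding protein, stood at a tumour mean of 8.66 log2 CPM. In tumour library 2 the interferon list differed by a median of -0.14, and Ms4a4c, which interferon induces in monocytes, by -0.45.

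The genes with profiles most like those of the 5 were sought by the root mean square difference of log2 values over the 6 libraries, after taking out each gene's mean. Cd300ld lay at 0.17 from Ms4a4c. Cd86, a costimulatory ligand, and Cxcr4 were nearest to Ms4a6b, at 0.13 and 0.19. Laptm5 and Mpeg1, genes of leukocytes and macrophages, were nearest to Ms4a6d, at 0.18 and 0.21. Igfbp3, a secreted binding protein for insulin-like growth factors, and Lair1, an inhibitory receptor, were nearest to Ms4a7, at 0.12 and 0.15. Ms4a6c had no neighbour as close, with Ccl8 at 0.34 and Il1rn at 0.38. Mpeg1, Cd86, C1qb, Cxcr4 and Adgre1 were nearest to the mean of the 5, at 0.17 to 0.28. These distances weigh the cultured libraries, where the values of Ms4a4c, Ms4a6b, Ms4a6c and Ms4a7 rest on 0 to 3 reads. In tumour library 2, Igfbp3 and Lair1 differed by -0.28 and -0.31 from the other tumour libraries, where Ms4a7 differed by -0.04.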

How the data were processed

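The members and the gene lists were chosen with earlier results of these data known. Per the submitters' processing notes the tools were HISAT, HTSeq and limma and the build mm10. The values deposited by the authors are log2 CPM of 13912 genes, whose form matches limma's voom, with 0.5 reads added and totals scaled by TMM. Solved for reads, 100% of values were whole within 0.01, at 35448588 to 41469090 reads per library. Counting error is small at these totals except near 0 reads. CPM in the text are recovered reads per scaled total.

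Groups were compared over all genes with limma 3.58.1 in R 4.3.3 (variance trend, two-sided, Benjamini-Hochberg at 0.05), a fit tested on simulated data. Count models were not run, as the deposited unit is log2. Members were not tested. Named genes were the members, the other MS4A genes in the table, the 2 highest genes of each list in tumour libraries and the nearest profiles, a few of which are not reported here. Other list genes (Vsig4, Spi1, the C1q genes, Ly6c2, Ccr2, Plac8, Cd8a) and the neighbours were chosen after their values were seen. So were Folr2, Cx3cr1, Ace, Spn, Zbtb46 and Egfl7. Coordinates come from GENCODE M21 (GRCm38, which is mm10), matched for the 96.1% of genes whose symbol occurs there once. Promoters are RefSeq's on GRCm38.p6, and sequences were compared with Biopython 1.88.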

Additional observations from a re-analysis of the deposited data

How the results depend on the processing

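No paired analysis was possible because no number in the labels occurs in both groups. Scalings moved the median of all genes by -0.23 (median centring), -0.41 (quantile), -0.15 (plain totals) and 0.39 (epithelial centring) on the log2 scale. Of the changed genes, the share higher in tumours was 61.1% as deposited and 48.1%, 35.2%, 52.3% and 85.0% in the same order. The count of lower genes was 2612, 5513 after quantile normalization, 922 when centred on epithelial markers, and 1520 to 3301 when 1 library was left out, the lowest without tumour library 3 and 1558 without tumour library 1. The cause was not tested for these changes. Every member stayed higher in tumour libraries under each setting run. The members were chosen by this contrast and had 0 to 12 cultured reads, so this adds no support. After quantile normalization the differences were 8.61 (Ms4a4c), 9.45 (Ms4a6b), 10.20 (Ms4a6c), 9.87 (Ms4a6d) and 10.03 (Ms4a7). With 2 reads added they were 9.39 (Ms4a4c), 10.32 (Ms4a6b), 11.08 (Ms4a6c) and 10.64 (Ms4a7), by construction. Ms4a7 was at 12.41 with median centring and 13.03 with epithelial centring.

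With epithelial centring 5 of the related genes were higher and 2 epithelial markers lower. Of those 5, the minimum of 61 reads fixed the direction of 3 (Ms4a8a, Ms4a4d and Ms4a4b), so the count is no test for them. Quantile normalization left 4 dendritic markers higher, with 1 dendritic, 1 endothelial and 1 T cell marker lower. A group mean of at least 1 log2 CPM left 4 dendritic, 1 B cell, 1 T cell (Cd4) and 2 mast cell markers higher, since fewer genes are tested. Fewer than 61 cultured reads were found for 7 of 8 dendritic, 2 of 2 B cell, 4 of 5 T cell and 5 of 5 mast cell markers. The counts of higher genes in these lists are therefore no test. With median centring and with library weights 1 T cell marker, Lck, was lower, and with weights 1 epithelial marker was higher. Leaving out 1 library gave 0 to 1 lower T cell and 0 to 1 higher epithelial markers. Against the receptor and adaptor list, mean levels were -2.02 (Ms4a4c), -0.90 (Ms4a6b), -0.0013 (Ms4a6c), 1.02 (Ms4a6d) and -0.97 (Ms4a7), and against the macrophage mean Ms4a6d was at 0.72. These levels are not divided by length, so only their change between libraries can be read. Shares per length were, for the longest transcript, 6.0% (Ms4a4c), 5.22% (Ms4a6b), 22.7% (Ms4a6c) and 60.1% (Ms4a6d). For the longest protein-coding transcript, chosen after the data were seen, they were 5.42%, 7.53%, 20.5%, 54.2% and 12.3% (Ms4a7). With no length they were 5.71%, 12.3%, 23.1%, 47.0% and 11.8% (Ms4a7). The difference of Ms4a7 in tumour library 2 was 0.032 with plain totals.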
